A study of Mus musculus with 12 samples.

Results

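Frame-keeping cassette exons are exons that a transcript either includes or skips as a block and whose length is a multiple of 3 nucleotides, so that inclusion or skipping adds or removes whole codons where the exon is translated. In murine G1E-ER4 erythroblasts, 1762 such exons longer than 60 nucleotides were found among 19323 splicing events. They were taken from the event table as exon skipping events at a single chromosome position, with a variable part over 60 nucleotides and divisible by 3. No measured value of inclusion entered that choice. Reads were deposited for both paths of each event, the path that includes the exon and the path that skips it, and the 1677 exons whose paths together held 10 reads or more in each library were tested. The other 85 fell under 10 reads in at least 1 library.

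G1E-ER4 is a mouse proerythroblast line without GATA1 of its own, in which a fusion of GATA1 to the estrogen receptor lets estradiol switch on erythroid differentiation. Edited derivatives of the line were compared after 24 h of estradiol, Sf3b1 K700E/+ cells (MUT, 3 libraries) and Sf3b1 +/+ cells (WT, 3 libraries). Both were made by CRISPR-Cas9 repair with a donor that carried a hygromycin cassette, which was later removed, and each genotype is a single clone, so that genotype and clone cannot be told apart. Poly(A) RNA was sequenced, and the samples from before estradiol are not analysed here. Nothing in the labels says that the 3 libraries of a genotype came from separate cultures, so the p-values rest on the spread between these samples only, which may be technical. Gene counts totalled 44045337 to 50077827 per MUT library and 38785471 to 40702174 per WT library, and the exons described here held 562129 to 753686 reads per library. Erythroid markers summed to 13469.9 to 19806.1 CPM (gene counts scaled to a common library total) in MUT and 14341.1 to 18790.7 CPM in WT. Granulocyte and macrophage markers summed to at most 0.0668 CPM in MUT and to 7.31, 22.0 and 23.4 CPM in WT, with 2 of the 7 genes at 0 in every library. Mast cell and eosinophil markers (4 genes) summed to 0.678 to 1.68 CPM in MUT and 8.72 to 31.8 CPM in WT. Single erythroid markers moved apart beneath the similar sums, with Gata1 at 320.1 CPM in MUT and 159.6 CPM in WT and Hbb-bt at 42.3 and 133.1 CPM (edgeR, adjusted p = 9.43e-06 and 0.00501). The Gata1 counts do not separate reads of the fusion from other Gata1 reads, so they cannot be read as a marker of differentiation here. The part of all these markers in the exon results was not tested.

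SF3B1 is a core subunit of the U2 snRNP, the particle that binds the branch point upstream of an acceptor (3′) splice site, and the K700E substitution in its HEAT repeats is known for the use of cryptic acceptors. A cassette exon is defined by an acceptor at its upstream end and a donor (5′) site at its downstream end, and it is skipped when the upstream donor is joined to the acceptor of the next exon. When the length is a multiple of 3, both forms can be translated in the same frame downstream, so that this class of exons commonly gives protein isoforms, whereas exons of other lengths shift the frame. Inclusion is given as PSI, the share of the including path after the reads of each path were divided by the length of that path, from 0 (never included) to 1 (always included).

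The exon sequences below are referred to beside their values. All but that of Phf20l1 show protein segments that the comparison concerns. They were read from the GENCODE M21 transcripts (GRCm38), in which an exon was accepted only when gene, exon length and the lengths of both neighbouring introns were equal to those of the event, whereas the positions are those of the event table on GRCm39. Of 1762 exons, 1291 had such a match and 1000 were fully coding in the transcript matched with or without both introns. The first set holds coding exons that rose in MUT, with the last 3 bases, the exonic part of the donor site, in capitals.
Stag2, chrX:41355243-41355353, plus strand, 111 nt: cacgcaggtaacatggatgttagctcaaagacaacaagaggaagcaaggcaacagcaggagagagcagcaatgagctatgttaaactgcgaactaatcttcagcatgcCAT
Tcf12, chr9:71776281-71776352, minus strand, 72 nt: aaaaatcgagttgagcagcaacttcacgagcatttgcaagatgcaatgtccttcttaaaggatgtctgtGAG
Senp1, chr15:97959831-97959908, minus strand, 78 nt: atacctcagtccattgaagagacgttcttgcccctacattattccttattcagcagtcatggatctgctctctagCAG
Ezh2, chr6:47518779-47518904, minus strand, 126 nt: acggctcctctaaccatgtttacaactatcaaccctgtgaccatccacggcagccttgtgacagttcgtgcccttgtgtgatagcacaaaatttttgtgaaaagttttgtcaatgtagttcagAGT
R3hdm1, chr1:128118375-128118476, plus strand, 102 nt: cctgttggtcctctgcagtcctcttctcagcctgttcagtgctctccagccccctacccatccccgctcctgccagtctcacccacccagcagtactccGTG
Pabpc4, chr4:123189543-123189629, plus strand, 87 nt: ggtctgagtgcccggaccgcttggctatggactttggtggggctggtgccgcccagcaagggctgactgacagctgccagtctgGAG
Rad18, chr6:112605423-112605485, minus strand, 63 nt: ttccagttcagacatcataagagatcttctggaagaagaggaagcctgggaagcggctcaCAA

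The Phf20l1 exon is shown because it was found with a pair of acceptors 12 nt apart. Its 90-nt form matched noncoding transcripts only, whereas its 78-nt form was fully coding in the matched transcript. The capitals mark the 12 bases that the 90-nt form has and the 78-nt form lacks. They end in AG, the bases that precede an acceptor.
Phf20l1, chr15:66469514-66469603, plus strand, 90 nt: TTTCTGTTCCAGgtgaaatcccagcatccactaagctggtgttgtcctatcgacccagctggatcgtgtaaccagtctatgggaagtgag

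Fyn has alternative exons of 165 and 156 nt between the same neighbours, and their sequences were identical at 97 of 172 aligned positions (56.4%). Capitals mark the last 3 bases.
Fyn, chr10:39405433-39405597, plus strand, 165 nt: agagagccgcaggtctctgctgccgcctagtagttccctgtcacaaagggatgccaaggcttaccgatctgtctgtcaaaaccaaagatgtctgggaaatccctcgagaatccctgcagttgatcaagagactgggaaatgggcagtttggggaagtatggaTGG
Fyn, chr10:39405915-39406070, plus strand, 156 nt: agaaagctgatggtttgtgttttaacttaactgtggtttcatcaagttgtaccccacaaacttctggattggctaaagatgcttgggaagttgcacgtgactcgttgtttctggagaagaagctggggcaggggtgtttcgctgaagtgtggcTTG

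The next set holds coding exons that fell in MUT, again with the last 3 bases in capitals.
Fyb, chr15:6674243-6674380, plus strand, 138 nt: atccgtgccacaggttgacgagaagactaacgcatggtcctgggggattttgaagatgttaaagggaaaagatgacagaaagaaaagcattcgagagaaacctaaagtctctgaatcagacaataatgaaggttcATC
Mtmr3, chr11:4435879-4435989, minus strand, 111 nt: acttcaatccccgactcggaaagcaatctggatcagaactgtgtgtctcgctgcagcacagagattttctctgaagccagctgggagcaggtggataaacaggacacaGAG
Rapgef1, chr2:29569749-29569862, plus strand, 114 nt: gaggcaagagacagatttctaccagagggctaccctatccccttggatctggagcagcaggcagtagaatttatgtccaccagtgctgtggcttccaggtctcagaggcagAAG
Grk2, chr19:4338440-4338535, minus strand, 96 nt: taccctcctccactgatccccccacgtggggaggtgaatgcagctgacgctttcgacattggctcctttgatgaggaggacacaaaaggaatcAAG
Rif1, chr2:52006680-52006757, plus strand, 78 nt: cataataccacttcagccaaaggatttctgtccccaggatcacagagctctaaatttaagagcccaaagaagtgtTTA

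The last pair, the spectrin-actin binding exon of Epb41 and an exon of Numb, is shown because these exons are known for regulated inclusion and had PSI values that overlapped between the genotypes.
Epb41, chr4:131690235-131690297, minus strand, 63 nt: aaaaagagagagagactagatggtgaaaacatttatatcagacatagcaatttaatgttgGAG
Numb, chr12:83843971-83844117, minus strand, 147 nt: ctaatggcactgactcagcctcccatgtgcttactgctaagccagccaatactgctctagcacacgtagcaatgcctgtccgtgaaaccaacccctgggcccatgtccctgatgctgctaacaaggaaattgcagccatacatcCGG

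The exons ranged from 63 nt to 5772 nt (a single exon of Tcf20), with a median of 118.5 nt and quartiles of 90 and 165 nt, and 117 were longer than 300 nt. They lay in 1281 genes and comprised 1625 distinct exons, since an exon that was joined to different neighbours gave an event for each. All 4 splice sites of the event were annotated in 1416, and none in 28. Among the 1246 tested exons with a sequence match, 995 ended in G (79.9%), 712 ended in AG (57.1%), and the median GC content was 51.2%, with quartiles of 45.2% and 57.3%. Of the 910 that were also fully coding, 430 began at a codon boundary (47.3%), as did those of Tcf12, R3hdm1, Mtmr3, Rapgef1, Grk2, Rif1 and Epb41 printed above. Most of the exons were included more often than skipped. The median PSI was 0.717 to 0.744 in the MUT libraries and 0.729 to 0.772 in the WT libraries, 365 to 481 of the 1677 tested exons were above 0.9, and 89 to 105 were below 0.1. The tested frame-shifting exons over 60 nt had medians of 0.750 to 0.806, and exons of up to 60 nt had medians of 0.453 to 0.490.

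Between the genotypes, 35 frame-keeping exons were included more and 45 less in MUT, by an adjusted p under 0.05 (edgeR's quasi-likelihood test of the path by genotype term, Benjamini-Hochberg adjustment over all 17720 events tested) together with a PSI difference over 0.10. These 80 exons lay in 72 genes and were 4.77% of the 1677 tested. The same share was 6.30% over all events, 5.24% for frame-shifting exons over 60 nt (1.83% higher, 3.40% lower) and 5.15% for exons of up to 60 nt (2.79% higher, 2.37% lower), so that the share of frame-keeping exons called was not above the background. By the adjusted p alone, 8.29% of them passed, against 9.46% of all events. In the 2 directions, 2.09% of them were higher and 2.68% lower, against 2.18% and 4.12% of all events. In all 80 called exons the PSI values of the genotypes did not overlap, which also held for 26.3% of the tested frame-keeping exons and 25.8% of all events. Most exons moved little. The median absolute PSI difference was 0.0364 for these exons and 0.0364 for all events, and 62.3% of the exons differed by less than 0.05.

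The balance of rises and falls rested on single libraries and on the test. The falls numbered 22 without WT replicate 2 and 29 without WT replicate 3, and the rises 23 without MUT replicate 2. With limma on logit PSI 18 rose and 12 fell, and with DESeq2 20 rose and 12 fell, so that rises outnumbered falls there. At a PSI difference over 0.20, 13 exons rose and 9 fell. In 31 of the 45 falls the WT library nearest to MUT was replicate 1. Over all tested exons replicate 1 also had the lowest median PSI of the WT libraries (0.729, against 0.765 and 0.772). Its sums of erythroid, megakaryocyte, granulocyte and macrophage, and mast cell and eosinophil markers were the lowest of the WT libraries too. MUT replicate 1 likewise had the lowest of these sums among the MUT libraries. Its median PSI was also their lowest (0.717, against 0.734 and 0.744). How often WT replicate 1 was nearest to MUT over all tested exons was not counted. In 12 of the 35 rises replicate 1 was the highest WT library, and thus nearest to MUT. Without both libraries numbered 1, 51 of the 80 exons were still called.

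**Figure D1:**
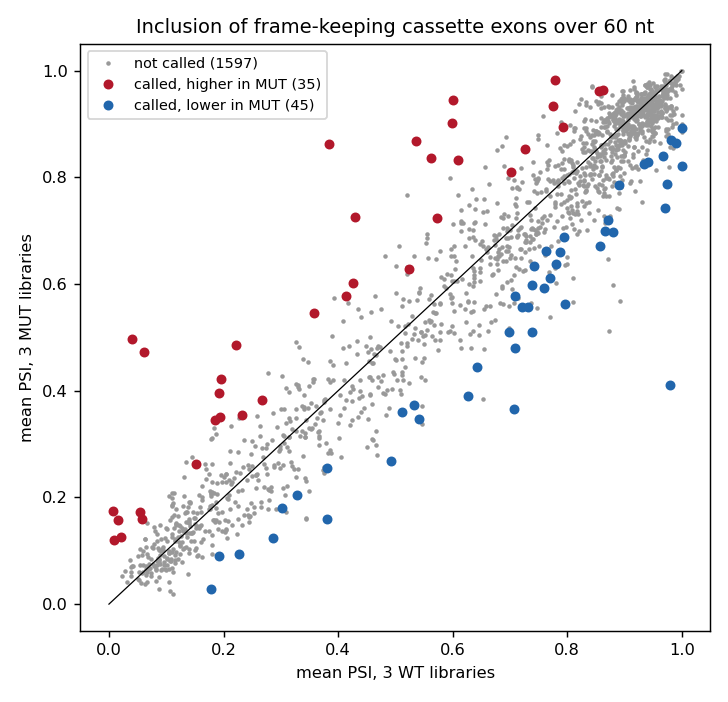
Mean PSI of each tested frame-keeping exon in the 3 WT libraries (horizontal axis) against the 3 MUT libraries (vertical axis), both from 0 to 1, with the line of equal inclusion. The 35 red points are exons called higher in MUT and the 45 blue points exons called lower, and most of the 1597 grey points lie close to the line.

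The levels of inclusion from which exons rose or fell are in part fixed by the choice, since PSI ends at 0 and 1 and a called exon moved by over 0.10. Exons that rose had a median PSI of 0.385 in WT and 0.577 in MUT, and 8 of the 35 were below 0.1 in WT. Exons that fell had a median of 0.743 in WT and 0.578 in MUT, and 10 of the 45 were above 0.9 in WT. The rising exons had a median length of 96 nt and the falling exons 135 nt, against 120 nt over the tested exons. From 61 to 90 nt 14 rose and 6 fell of 436 tested, from 91 to 150 nt 18 rose and 21 fell of 719, from 151 to 300 nt 3 rose and 16 fell of 406, and over 300 nt none rose and 2 fell of 116. All 4 splice sites were annotated in 26 of the 35 rises (74.3%) and 41 of the 45 falls (91.1%), against 81.2% of the tested exons. By annotation, 14 of the rises and 25 of the falls were fully coding, 39 of 80, against 57.2% of the tested exons. Of the called exons with a sequence match, 19 of 24 rises and 30 of 37 falls ended in G, close to the share over all matched exons. At the length threshold of 60 nt, 1 of 42 exons of 57 nt, 3 of 40 of 60 nt, 1 of 44 of 63 nt and 1 of 47 of 66 nt were called.

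**Figure D2:**
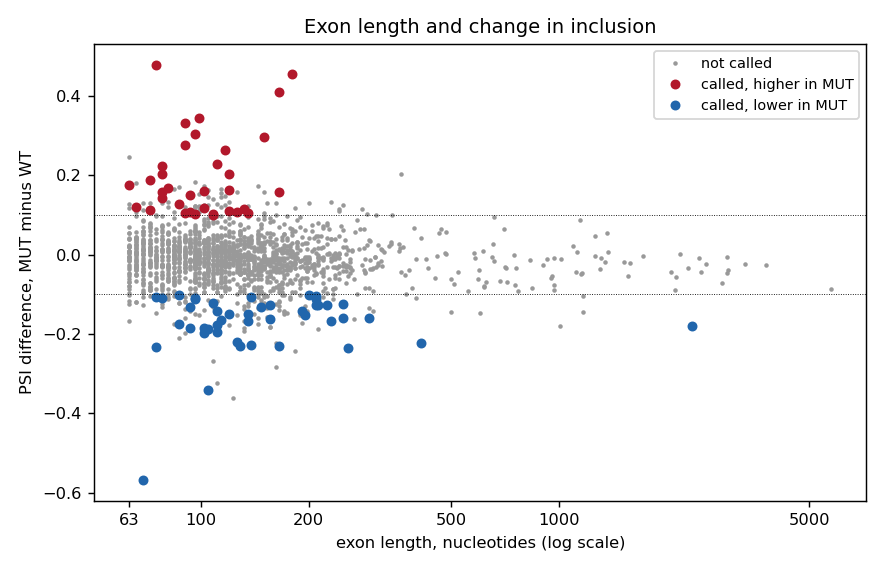
PSI difference between MUT and WT (vertical axis) against exon length in nucleotides (horizontal axis, log scale) for the tested exons, with dotted lines at a difference of 0.10 in each direction. Called rises (red) lie between 63 and 180 nt, and called falls (blue) between 69 and 2361 nt.

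Among the lists of cell cycle and of chromatin genes, 7 exons were called, of which 2 are overlapping forms in Phf20l1 that share reads. Stag2 encodes a subunit of cohesin, the ring that holds sister chromatids together, and its 111-nt exon, exon 31 of 34 in the matched transcript, adds 37 residues to the protein. Its PSI was 0.437, 0.426 and 0.405 in MUT and 0.204, 0.195 and 0.187 in WT. Inclusion was thus higher in each MUT library than in any WT library, with means of 0.423 ± 0.0165 and 0.195 ± 0.00854 (SD, n = 3 each) and an adjusted p of 2.95e-08. The reads behind these values were 1635 including and 946 skipping in MUT and 655 including and 1150 skipping in WT. The other Stag2 exon of this class, of 135 nt, had a mean PSI of 0.973 in MUT and 0.945 in WT, and it did not pass (adjusted p = 0.340).

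Ezh2 encodes the catalytic subunit of Polycomb repressive complex 2, which methylates histone H3. Its 126-nt exon (42 residues) had a PSI of 0.826, 0.814 and 0.793 in MUT and 0.708, 0.708 and 0.691 in WT, a difference of 0.108 (adjusted p = 0.00153) over 3683 including reads in MUT and 2409 in WT. Tcf12 encodes HEB, a basic helix-loop-helix partner of TAL1, and its 72-nt exon (24 residues) had a PSI of 0.476, 0.596 and 0.562 in MUT and 0.284, 0.406 and 0.383 in WT. The genotypes did not overlap, and the difference was 0.187 (adjusted p = 0.00149). Phf20l1, a reader of methylated lysine, had 2 called forms of 1 exon that are described with their acceptors below.

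Within the chromatin and transcription list, 4 of 79 tested exons rose and 2 fell, 7.59% called. The falls include the 102-nt exon of Chd3, a remodeller of the NuRD complex, which had a mean PSI of 0.671 ± 0.0248 in MUT and values of 0.731, 0.922 and 0.919 in WT (difference -0.186, adjusted p = 0.0222). Here WT replicate 1 lay near the MUT libraries and the other WT libraries lay well above, and the call was lost without MUT replicate 1 or 2 or WT replicate 2 or 3 (adjusted p of 0.0626, 0.0845, 0.147 and 0.143). In Brd8, a bromodomain protein of the NuA4/TIP60 complex, a 210-nt exon fell from 0.940 ± 0.00674 to 0.829 ± 0.0365 (SD, n = 3 each, adjusted p = 2.42e-05), and the difference was -0.0901 without MUT replicate 1. In the cell cycle list only the Stag2 exon was called, 1 of 11 tested (9.09%). The cell cycle and DNA repair lists are gene sets of the study, all lists were put together with results of these libraries known, and the shares are read against the background of 4.77%.

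Among DNA repair genes, 2 exons rose and 4 fell of 111 tested (5.41%). Rad18 encodes an E3 ubiquitin ligase that modifies PCNA at stalled forks, and its 63-nt exon (21 residues) had a PSI of 0.570, 0.568 and 0.669 in MUT and 0.423, 0.412 and 0.444 in WT. The difference was 0.176 with an adjusted p of 0.0121, and 0.143 with an adjusted p of 0.0879 without MUT replicate 3. Xrcc2, a gene of homologous recombination, had higher inclusion of an exon with 2 of the 4 sites unannotated, whose variable part is listed with 108 nt but whose mapped length differs from that and is not a multiple of 3. It had PSI values of 0.150, 0.164 and 0.165 in MUT and 0.0350, 0.0311 and 0.109 in WT (adjusted p = 0.0152). Without MUT replicate 2 or 3 or WT replicate 1 or 2 its difference was under 0.10, at 0.0880 to 0.0993, and with the less-read junction alone it was 0.0245 (adjusted p = 0.559). The fall in Mcrs1, a subunit of the INO80 complex, was from 0.871 ± 0.0132 to 0.721 ± 0.0145 (adjusted p = 6.11e-05), in an exon in which the coding region starts. For Rif1, which directs repair pathway choice and replication timing, the 78-nt exon had PSI values of 0.622, 0.630 and 0.651 in MUT and 0.751, 0.714 and 0.763 in WT (adjusted p = 0.0432). It was called only with all libraries or without WT replicate 2, and without any other library the adjusted p was 0.0639 to 0.150.

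Signalling genes gave 1 rise and 2 falls among 45 tested exons of kinases and GTPase regulators (6.67%). The rise was in Fyn and the falls in Rapgef1 and Sipa1l1. The Sipa1l1 event, described below, rested on unequal reads at the ends of the exon. Fyn is a kinase of the Src family, and its mutually exclusive exons of 165 and 156 nt encode the start of the kinase domain. For the 165-nt exon the PSI was 0.926, 0.965 and 0.911 in MUT and 0.827, 0.750 and 0.748 in WT (difference 0.159, adjusted p = 0.0309). The skipping path leaves out both exons and was the same for both, with 8 reads in MUT and 23 in WT. The 156-nt exon, measured against the same skipping reads, had means of 0.952 and 0.859 and did not pass (adjusted p = 0.0730). Transcripts with the other exon enter neither PSI, so these values do not show the choice between the exons. Including reads were 328 in MUT and 241 in WT for the 165-nt exon, and 463 and 417 for the 156-nt exon. The call of the 165-nt exon held without WT replicate 1 only, with an adjusted p of 0.0534 to 0.112 without each other library. Rapgef1, an exchange factor for the GTPase Rap1, had a PSI of 0.578, 0.548 and 0.542 in MUT and 0.691, 0.773 and 0.699 in WT for its 114-nt exon (difference -0.165, adjusted p = 0.00259).

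Grk2, which is not in that list, encodes the kinase that phosphorylates activated G protein-coupled receptors. Its 96-nt exon was skipped in few transcripts of WT, with a PSI of 0.983, 0.973 and 0.989, and in more of MUT, with 0.865, 0.858 and 0.885. Skipping reads numbered 19 in WT against 2254 including reads, and 91 in MUT against 1345, and the adjusted p was 8.48e-08. Fyb, an adapter of integrin and actin signalling that is also known as ADAP, had a 138-nt exon (46 residues) with a PSI of 0.520, 0.530 and 0.483 in MUT and 0.729, 0.709 and 0.777 in WT (adjusted p = 2.49e-06). Mtmr3, a phosphoinositide phosphatase, had a PSI of 0.308, 0.358 and 0.375 in MUT and 0.412, 0.594 and 0.619 in WT for its 111-nt exon, with WT replicate 1 again nearest to MUT (adjusted p = 0.00240).

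**Figure D3:**
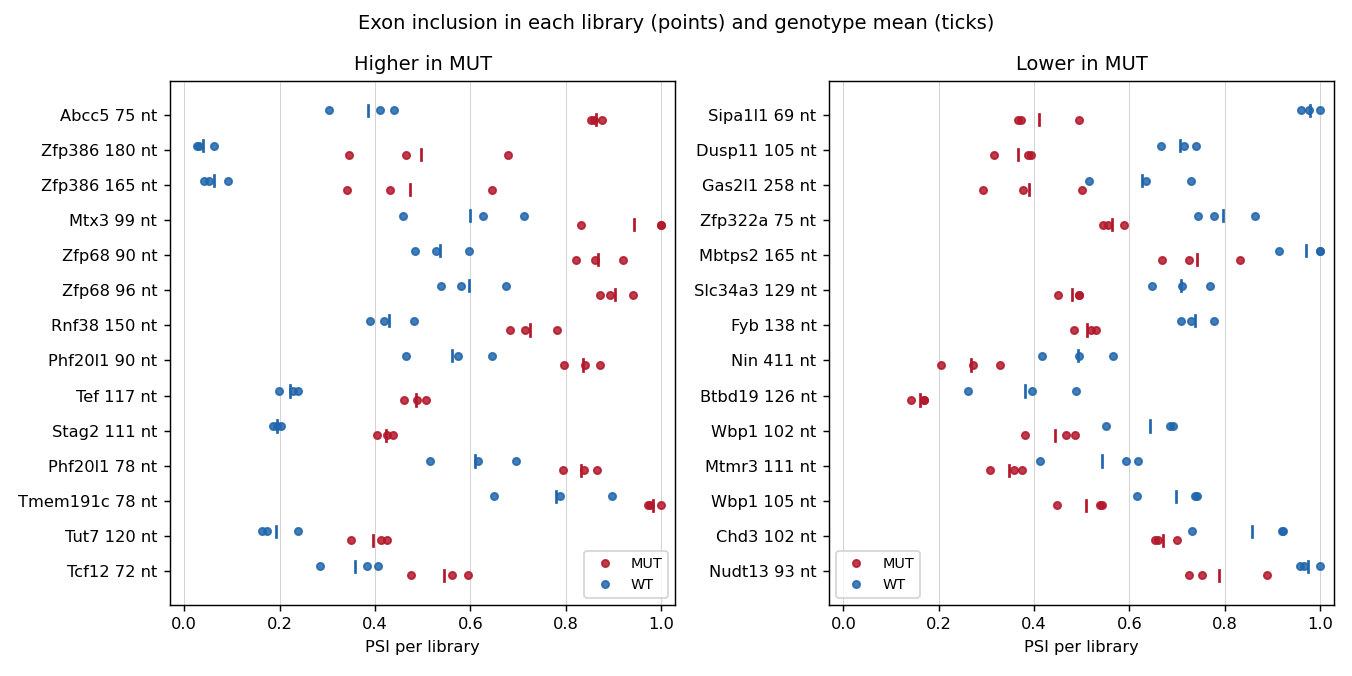
PSI in each library for the 14 called exons with the largest rises (left) and the 14 with the largest falls (right), named by gene and length, with MUT libraries as red points, WT libraries as blue points and the mean of 3 libraries as a tick. In every exon shown the red and blue points do not overlap.

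Further rises were seen in genes of other functions. Pabpc4, a cytoplasmic poly(A)-binding protein, included its 87-nt exon with a PSI of 0.845, 0.841 and 0.871 in MUT and 0.702, 0.734 and 0.742 in WT, over 7589 and 3928 including reads (difference 0.126, adjusted p = 1.51e-05). R3hdm1, which has the R3H domain of nucleic acid-binding proteins, had 0.325, 0.362 and 0.350 in MUT and 0.163, 0.185 and 0.207 in WT (adjusted p = 0.000577). The values of Senp1, a SUMO protease, were 0.320, 0.376 and 0.356 in MUT and 0.140, 0.231 and 0.210 in WT (adjusted p = 0.00121), so that its 26-residue segment was included in about 0.351 of MUT and 0.193 of WT transcripts. In Bag6, a chaperone of tail-anchored proteins, the 108-nt exon rose from 0.863 ± 0.0125 to 0.963 ± 0.0120 (adjusted p = 9.04e-07), with differences of 0.0946, 0.0999 and 0.0932 without MUT replicate 2, MUT replicate 3 or WT replicate 3. Of 35 exons in the list of splicing and RNA-binding genes, 1 was called (2.86%), the 66-nt exon of Cpsf7, a subunit of cleavage factor I, with 0.354 ± 0.0191 in MUT and 0.233 ± 0.00940 in WT (adjusted p = 0.0294). The coding region ends in this Cpsf7 exon in the matched transcript. The exon was not called without any 1 library other than WT replicate 1 (adjusted p of 0.0614 to 0.118).

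In the cytoskeleton list 1 of 48 tested exons was called (2.08%) and in the membrane traffic list 1 of 32 (3.13%), both lower in MUT and both shares under the background of 4.77%. Nin encodes ninein, which anchors microtubules at the centrosome, and its 411-nt exon is untranslated in the matched transcript. The exon had a PSI of 0.328, 0.204 and 0.273 in MUT and 0.494, 0.565 and 0.416 in WT (adjusted p = 0.0202). The call was lost without MUT replicate 2 or 3 or WT replicate 2 (0.116, 0.0573 and 0.127). In Tbc1d31, a centrosomal protein with a TBC domain, the 195-nt exon had 0.360 ± 0.0333 in MUT and 0.511 ± 0.0616 in WT (adjusted p = 0.00669), or 0.0627 without MUT replicate 2 and 0.0664 without WT replicate 2. Outside the lists, the longest called exon was the 2361-nt exon of Rtn4 (787 residues), which separates the long isoform Nogo-A of this reticulon from the short isoforms. Its PSI was 0.738, 0.715 and 0.643 in MUT and 0.856, 0.871 and 0.910 in WT (adjusted p = 0.00484), although the path that skips it had 47 reads in MUT and 18 in WT. Transcription factors among the falls were Usf2 (201 nt, 0.763 to 0.662), Maz (225 nt, 0.380 to 0.255) and Foxk2, whose 210-nt exon was called with each of its flanking sites (0.787 to 0.660 and 0.890 to 0.785), with adjusted p of 0.0296, 0.000404, 0.0103 and 0.0194. The second Foxk2 event lists 5 splice sites, of which 3 were annotated. The coding region ends in the Maz exon in the matched transcript. Maz was called whichever library was left out but not with limma, and with the less-read exon junction alone its difference was -0.0469. Usf2 was not called without MUT replicate 1 or 3 or WT replicate 2 or 3 (0.0715 to 0.198), the first Foxk2 event not without WT replicate 3 (0.0577), and the second not without MUT replicate 2 or 3 or WT replicate 1 or 3 (0.0524 to 0.0892).

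The lowest inclusion in MUT among the called exons was that of a 135-nt untranslated exon of Gtf3c5, a subunit of the RNA polymerase III factor TFIIIC. Its PSI was 0.0315, 0.0298 and 0.0256 in MUT and 0.155, 0.222 and 0.156 in WT, with 43 including reads against 541 skipping in MUT and 163 against 287 in WT (adjusted p = 2.93e-08). Dusp11, an RNA phosphatase, had the second-largest fall. Its 105-nt exon, which has 1 unannotated site, was included at 0.317, 0.394 and 0.388 in MUT and 0.665, 0.715 and 0.739 in WT (adjusted p = 6.92e-07).

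Exons that were nearly absent from WT formed a small group among the rises. Nbdy, which encodes the microprotein NoBody of mRNA decapping, had an 81-nt exon with 2 of the 4 sites unannotated, and its including reads were 33, 30 and 28 in MUT and 2 in each WT library. The PSI was 0.147, 0.226 and 0.150 in MUT and 0.00842, 0.00789 and 0.00667 in WT (adjusted p = 7.40e-09). The PSI of a 102-nt exon of Ciz1, a protein of replication and Xist anchoring, was 0.172 ± 0.0113 in MUT and 0.0541 ± 0.0161 in WT (adjusted p = 0.000228). With the less-read exon junction alone the Ciz1 difference was 0.0562 (adjusted p = 0.0564), and with the deposited PSI the exon was not called either. Hsf2, a heat shock transcription factor, had 19 including reads in MUT and 1 in WT for a 72-nt untranslated exon (adjusted p = 0.0176), which was not called without MUT replicate 2 or WT replicate 1 or 2 (differences of 0.0732, 0.108 and 0.108, the last 2 with adjusted p of 0.109 and 0.0703). The others were Xrcc2 and both forms of Ppp2r1b and of Zfp386.

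In 6 genes, 2 called exons overlapped, and in each of the 6 the forms shared the donor and differed at the acceptor, by 3 to 63 nt. The event reads that cross into the exon at its acceptor tell the forms apart, and their share is independent of skipping. In Phf20l1 the acceptor of the longer, 90-nt form had 46, 36 and 43 reads in MUT and 10, 13 and 6 in WT, whereas that of the 78-nt form, 12 nt downstream, had 34, 29 and 23 in MUT and 22, 28 and 29 in WT. The upstream acceptor thus took 57.5%, 55.4% and 65.2% of these reads in MUT and 31.3%, 31.7% and 17.1% in WT, without overlap. The PSI of the 90-nt form was 0.837 ± 0.0382 in MUT and 0.561 ± 0.0903 in WT (adjusted p = 0.000116), and that of the 78-nt form, which shares the reads inside the exon and across its donor, was 0.833 ± 0.0359 and 0.609 ± 0.0899 (adjusted p = 0.00158). When only the less-read of the 2 exon junctions was counted, the 90-nt form kept its call (difference 0.488, adjusted p = 2.37e-06) and the 78-nt form did not (0.184, adjusted p = 0.117).

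Ppp2r1b encodes a scaffold subunit of protein phosphatase 2A. Its forms of 78 and 90 nt differ by 12 nt at unannotated acceptors. The upstream acceptor had 73 reads in MUT and 16 in WT, and the downstream acceptor 129 and 6, so that the longer form took 36.1% of the acceptor reads in MUT and 72.7% in WT, from few reads in WT. The PSI of the 78-nt form was 0.136, 0.179 and 0.160 in MUT and 0.0106, 0.0113 and 0.0276 in WT (adjusted p = 6.79e-11), and that of the 90-nt form was 0.127 ± 0.0195 and 0.0216 ± 0.00837 (adjusted p = 3.92e-09), with a difference of 0.0938 without MUT replicate 2.

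Zfp386, a KRAB zinc finger gene, had forms of 165 and 180 nt with 15 nt between their acceptors. The upstream acceptor had 15, 18 and 19 reads in MUT and none in WT, and the downstream acceptor 8, 5 and 4 reads in MUT and 1 in each WT library. Inclusion of the 180-nt form was 0.347, 0.464 and 0.678 in MUT and 0.0619, 0.0272 and 0.0314 in WT (adjusted p = 1.77e-06). The MUT libraries were spread widely here, with an SD of 0.168, but lay far above WT. Other genes showed no such contrast between their acceptors. The longer form took 79.6% of the acceptor reads in MUT and 75.7% in WT in Zfp68, 74.3% and 70.9% in Wbp1, and 70.6% and 70.9% in 4833420G17Rik. In Zfp68, another zinc finger gene, inclusion nevertheless differed, at 0.868 ± 0.0503 against 0.536 ± 0.0568 for the 90-nt form and 0.903 ± 0.0350 against 0.598 ± 0.0703 for the 96-nt form (adjusted p = 4.99e-05 and 1.50e-05). Both forms fell in Wbp1, from 0.642 to 0.445 (102 nt) and from 0.698 to 0.510 (105 nt), with adjusted p of 0.00796 and 0.00588. Without MUT replicate 3 neither was called (0.0776 and 0.0622), nor was the 102-nt form without WT replicate 2 or 3 (0.0533 and 0.0620).

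**Figure D4:**
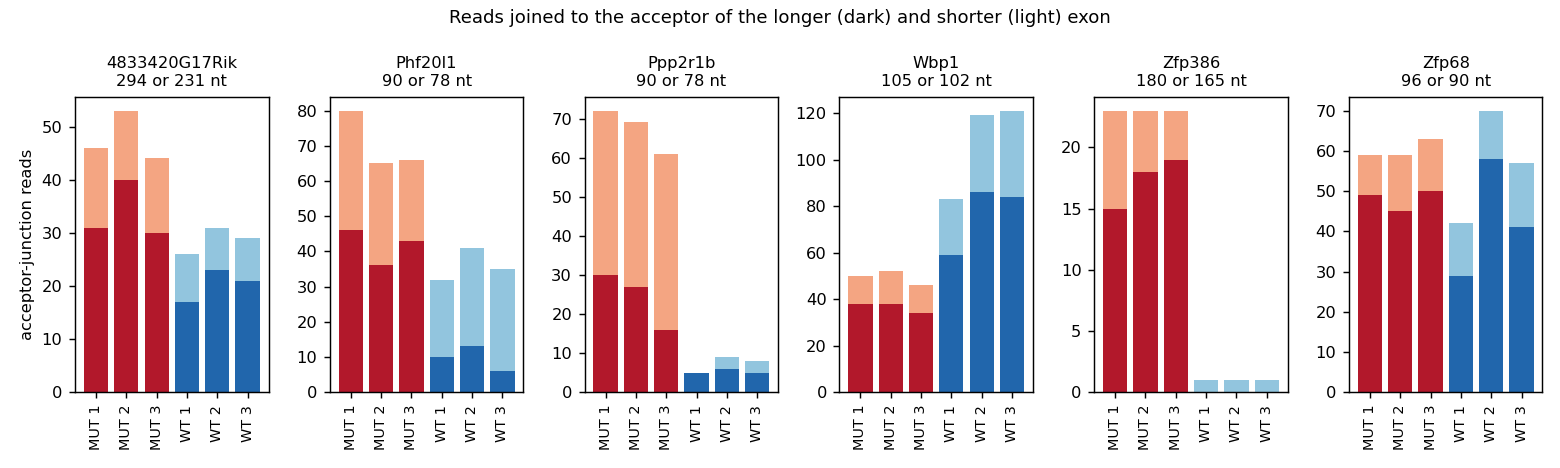
Reads that cross into the exon at its acceptor, per library (bars; red MUT, blue WT), in the 6 genes with a pair of overlapping called exons, stacked as the longer form (dark) and the shorter form (light). In Phf20l1 the dark part is 36 to 46 reads in MUT and 6 to 13 in WT, and in Zfp386 it is 15 to 19 in MUT and 0 in WT.

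The largest rise and the largest fall in PSI rested on unequal reads at the ends of the exon. Abcc5 encodes an ABC transporter that exports cyclic nucleotides and is known for a role in heme transport. Its 75-nt exon, in which the coding region ends, had a PSI of 0.860, 0.853 and 0.877 in MUT and 0.411, 0.305 and 0.439 in WT (adjusted p = 1.79e-07). One exon junction had 315 reads in MUT and 47 in WT, but the other had 10 and 3, so that most of the reads assigned to inclusion did not extend to both neighbours. With the less-read junction alone the difference was 0.191 and the exon was not called (adjusted p = 0.0650).

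Sipa1l1 encodes a GTPase-activating protein for Rap, and its 69-nt exon, untranslated in the matched transcript, was measured between 2 pairs of neighbours. In the called event, which lists 5 splice sites, only 3 were annotated, and the upstream donor was not among these. There PSI was 0.494, 0.366 and 0.373 in MUT and 0.960, 0.977 and 1.00 in WT, a difference of -0.568 (adjusted p = 7.49e-09). One exon junction had 125 reads in MUT and 185 in WT. The other junction had 41 and 3, and the skipping junction had 126 and 2, so that nearly all WT reads came from the first junction. With all 4 sites annotated, the same exon had a PSI of 0.421, 0.277 and 0.411 in MUT and 0.338, 0.339 and 0.347 in WT, with 193 and 373 skipping reads, and the difference of 0.0286 was within the spread of the MUT libraries (adjusted p = 0.810).

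The junction with more reads had over 3 times the reads of the other in 9 of 35 rises (25.7%) and 8 of 45 falls (17.8%), against 18.4% of the tested exons. With the less-read junction only, 72 of the 80 exons could be tested and 41 were called. Those kept include Stag2 (difference 0.211, adjusted p = 2.74e-08), Grk2 (-0.130, adjusted p = 2.46e-08), Fyb (-0.221, adjusted p = 1.18e-05) and Ezh2 (0.116, adjusted p = 0.00231). Calls lost with it include Tut7, Chd3, Nin, Tbc1d31, Rif1, the 165-nt exon of Fyn, both events of Foxk2, Hsf2 and the 90-nt form of Ppp2r1b, all in the same direction. The fall of an exon of the unnamed gene ENSMUSG00000121037 did not hold (0.00229, adjusted p = 0.976). Counting the reads of both junctions alone, 66 of 77 tested exons were called. In all, 29 of the 80 exons were called whichever library was left out, 18 rises and 11 falls. Adding the other tests and read sets except the less-read junction left 15 exons, of Abcc5, Dusp11, Fyb, Grk2, Gtf3c5, Mcrs1, Nbdy, Phf20l1, Ppp2r1b, R3hdm1, Stag2, Zfp386 and Zfp68, and 13 with it, which leaves out the exon of Abcc5 and the 165-nt form of Zfp386 (difference 0.124, adjusted p = 0.252).

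**Figure D5:**
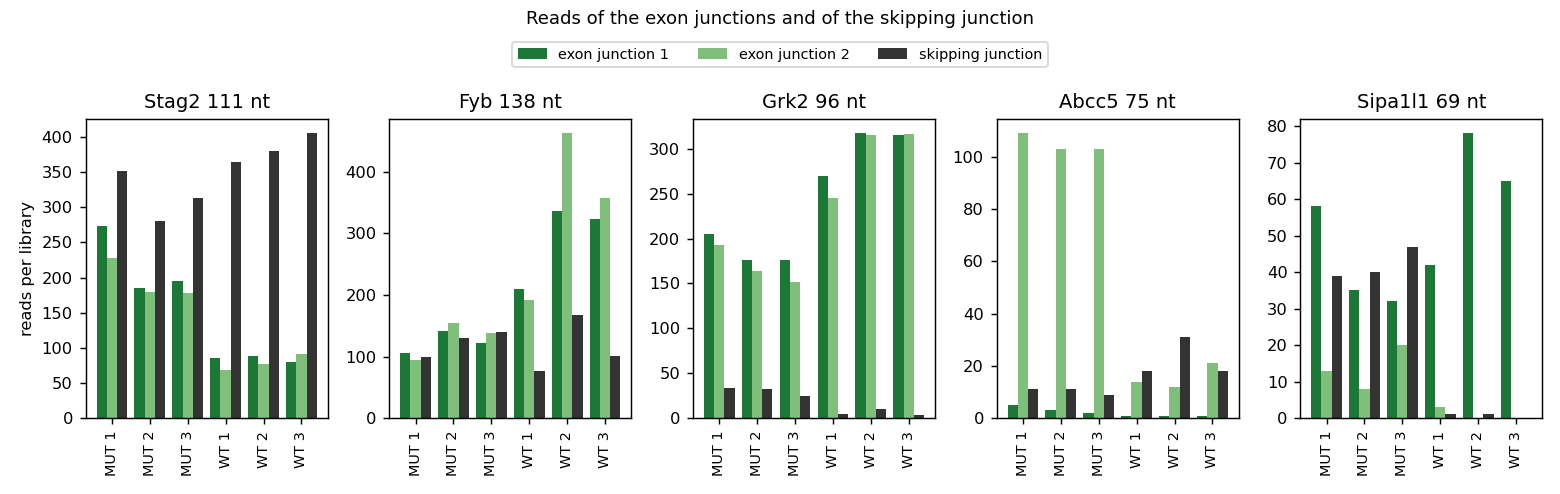
Reads per library (vertical axis) at the 2 junctions that join the exon to its neighbours (greens) and at the junction that skips it (black), for 5 exons. In Stag2, Fyb and Grk2 the green bars are of similar height, in Abcc5 the first junction has 1 to 5 reads per library, and in Sipa1l1 the second junction and the skipping junction have 0 to 3 and 0 to 1 reads per WT library.

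Exons in genes known for regulated inclusion in other settings were not called. None of the 28 tested exons in 18 such genes was called, against 4.77% of all tested frame-keeping exons. A set of this size is too small to tell that apart from the background. The median absolute PSI difference was 0.0279, and 3 of the 28 had an adjusted p under 0.05 with a small difference. The 28 were taken by gene, so that not each of them is known for regulation. They include untranslated exons, such as those of Add1 and Ank1 below, and exons with unannotated sites, as in Spag9 and Itsn1. The 63-nt exon of Epb41 (protein 4.1R), whose inclusion is known to rise late in erythroid differentiation and to strengthen the binding of spectrin and actin, had a PSI of 0.253, 0.229 and 0.246 in MUT and 0.237, 0.257 and 0.276 in WT (difference -0.0139, adjusted p = 0.784) over 1497 and 1366 including reads. In Numb, an inhibitor of Notch, the 147-nt exon had 0.315 ± 0.0252 in MUT and 0.333 ± 0.0675 in WT (adjusted p = 0.878). In Mbnl1 (111 nt), Golga2 (96 nt), Camk2g (69 nt) and Picalm (150 nt) the mean PSI differed by less than 0.02, while Nf1 (63 nt) had a larger difference of -0.116 with a WT spread from 0.628 to 1.00 and was not called (adjusted p = 0.581). Differences near the threshold, without overlap of the genotypes, were those of Add3 (96 nt, -0.0837), Ktn1 (69 nt, -0.0896) and Eif4g3 (129 nt, -0.0920). Their adjusted p in edgeR was 0.0637, 0.0925 and 0.246. An 84-nt exon of Ktn1 moved the other way, also without overlap (0.0613, adjusted p = 0.185).

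The 3 with an adjusted p under 0.05 were Map3k7, Add1 and Ank1. Map3k7 encodes TAK1, a kinase upstream of NF-kappaB and MAP kinases. Its 81-nt exon had a PSI of 0.897, 0.889 and 0.889 in MUT and 0.961, 0.953 and 0.937 in WT, a fall of 0.0591 that did not reach the size threshold (adjusted p = 0.0294). In Add1 (alpha-adducin, a cap of actin filaments in the red cell skeleton) the 279-nt exon had 0.235 ± 0.0148 in MUT and 0.170 ± 0.00509 in WT (adjusted p = 0.0269). For Ank1 (ankyrin, which ties spectrin to band 3) the 117-nt exon had 0.0375 ± 0.00679 and 0.0627 ± 0.00329 (adjusted p = 0.0261). In the erythroid list, none of 15 tested exons was called, with 2 at an adjusted p under 0.05 in edgeR. This list too is too small to tell apart from the background of 4.77%.

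Among the exons with the most reads, 3 with a small difference are given for the spread between libraries. In Hnrnpa2b1, an hnRNP protein, a 120-nt exon with 34456 including reads in MUT and 27035 in WT had a PSI of 0.582, 0.633 and 0.601 in MUT and 0.570, 0.638 and 0.612 in WT, so that libraries of a genotype differed by more than the genotypes (adjusted p = 0.980). The 99-nt exon of Ybx3, a cold shock domain protein, had a mean PSI of 0.999 in MUT and 1.00 in WT. An 84-nt exon of Arhgdib had 4 skipping reads in MUT and 28 in WT against 36518 and 50567 including reads, and its adjusted p of 0.00797 came with a PSI difference of 0.000940.

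Of the 72 genes with called exons, 70 could be tested for expression, and 4 were differentially expressed (adjusted p under 0.05 and an absolute log2 fold change over 1 in edgeR), 5.71%, against 10.3% of all 12547 genes tested (6.24% lower) and 5.08% of the 1200 host genes of tested frame-keeping exons. All 4 were lower in MUT. They were Fyb at -1.09 ± 0.18 (log2 fold change ± SE), Nin at -1.34 ± 0.18, Tut7, a terminal uridylyltransferase, at -1.15 ± 0.06, and ENSMUSG00000121037 at -1.69 ± 0.16, with adjusted p of 0.00122, 0.000301, 1.57e-06 and 5.32e-05. The fold change was within 0.5 in 54 of the 70, as in Stag2 at -0.09 ± 0.06 and Ezh2 at 0.07 ± 0.06. The exons of Tut7 and Fyb moved in opposite directions while both genes were lower. The Fyb exon is fully coding, whereas the coding region ends in the 120-nt exon of Tut7 in the matched transcript. The Tut7 exon had a PSI of 0.396 ± 0.0405 in MUT and 0.192 ± 0.0408 in WT (adjusted p = 0.00640).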

How the data were processed

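Poly(A) RNA of 3 Sf3b1 K700E/+ and 3 Sf3b1 +/+ libraries of G1E-ER4 cells was examined after 24 h of estradiol. The authors aligned and counted reads with STAR 2.7.9, and the submitters' processing notes name GRCm39 and DESeq2 1.30.1. They deposited raw counts per gene, and for each splicing event assembled with KisSplice the read counts of both paths and a PSI per library as a fraction. The study names GENCODE as its source of annotation, and the mouse release is not given in the sources used here.

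The 2 read files of a library were summed. The reads of the including path were the sum of both junction reads and internal reads minus reads that span both junctions. Over 10273 values, the PSI computed here correlated with the deposited fraction at 0.983 and was on average 0.0575 higher. Of these values, 59.4% lay within 0.05 of the deposited fraction, so levels of inclusion depend on how PSI is computed. In edgeR 4.0.16 (R 4.3.3), path counts were modelled with library, path and the interaction of path with genotype, and 17720 events of a named type with 10 reads or more in each library, both paths together, entered the test. KissDE was not run. Gene counts were tested with TMM and filterByExpr in the same package. The steps were tested on simulated data. The table lists a length for the variable part that differs from the mapped exon in 30 of the 1762 exons, Xrcc2 among them.

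The members and lists were chosen with earlier results of these data known. Named exons are the 10 largest rises and 10 largest falls, up to 4 called exons of each list, the exons of genes known for regulated inclusion, genes with several called exons, and 3 deep exons with a PSI difference under 0.02. The other called exons named, the second exons of Stag2, Fyn and Sipa1l1, and the printed sequences were chosen after their values were seen. The alternatives were limma 3.58.1, DESeq2 1.42.0, coverage minimums of 5 and 20 reads, a PSI threshold of 0.20, other read sets, the replicate block and left-out libraries. Deviations of gene levels from the genotype means correlated between same-numbered libraries at 0.637, 0.490 and 0.478 over 8771 genes, each over 0.1, and deviations of PSI at 0.123, 0.0657 and 0.0905 over 16304 events. The tests reported have no replicate term, and the fit with the replicate number as a block is an alternative. A total of 1400 exons were matched to GENCODE M21 by gene, exon length and at least 1 intron length. Depth was a median of 154 reads per exon and library, and libraries before estradiol were not analysed here.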

Additional observations from a re-analysis of the deposited data

How the results depend on the processing

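Counts are given as frame-keeping exons, then frame-shifting exons over 60 nt, then exons of up to 60 nt, each higher and lower in MUT. A PSI difference over 0.20 gave 13 and 9, 21 and 30, and 2 and 9. With limma they were 18 and 12, 20 and 25, and 4 and 9, and with DESeq2 20 and 12 and 21 and 33, with 6 short exons higher. Events without complexity or variants, fewer by construction (733, 799 and 331 tested), gave 10 and 14, 6 and 18, and 6 and 9. Chosen after seeing the data, the less-read junction gave 27 frame-keeping and 51 frame-shifting exons lower and 12 short exons higher, and leaving out both libraries numbered 1 gave 27 frame-shifting and 12 short exons higher. Leaving out 1 library at a time gave 23 to 34 frame-keeping exons higher and 22 to 53 lower, and 9 to 19 short exons higher. The cause of these shifts was not tested, apart from the fewer events. The less-read junction turned the exon of ENSMUSG00000121037 to 0.00229, and no other alternative turned a called exon that it could measure. With the replicate block, 79 of the 80 exons were still called, and Mbtps2, a protease of sterol signalling whose 165-nt exon had 14 skipping reads in MUT and 1 in WT, was not (adjusted p = 0.0505 with the block, 0.0472 without). Coverage minimums of 5 and 20 reads kept all 80 and all 77 exons testable, TMM library sizes all 80, and the deposited PSI, which has no WT value for Sipa1l1, 72. Depth sets the other limit: 85 exons were under 10 reads in a library, and a PSI with few skipping reads, as in Mtx3 (2 in MUT, 21 in WT), is imprecise.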

Other observations

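Further exons among the 80 were spread over other functions. Porcn, the acyltransferase that lipidates Wnt proteins, and Wwp1, an E3 ubiquitin ligase, had no skipping read in WT and 9 and 8 skipping reads in MUT, so that PSI was 0.839, 0.758 and 0.868 in MUT for the 111-nt exon of Porcn and 0.930, 0.891 and 0.858 for the 138-nt exon of Wwp1 (edgeR, adjusted p = 0.0119 and 0.0230). In Emsy, a partner of BRCA2, the 156-nt exon had 24 skipping reads in MUT and 2 in WT (difference -0.127, adjusted p = 0.0496). An 87-nt untranslated exon of Pts, an enzyme of tetrahydrobiopterin synthesis, had a PSI of 0.0842, 0.109 and 0.0775 in MUT and 0.192 ± 0.0209 (SD, n = 3) in WT (adjusted p = 0.00506). Fam13b had separate called exons of 192 nt (difference -0.143) and 213 nt (-0.126), both lower in MUT. In the opposite direction, Marchf2, a membrane-bound E3 ubiquitin ligase, had 0.237, 0.261 and 0.291 in MUT and 0.139, 0.137 and 0.183 in WT for an exon of 120 nt (adjusted p = 0.00934). These calls rested on single libraries. Porcn was lost without MUT replicate 2 or WT replicate 2 (0.0756 and 0.0568), Emsy without any 1 library (0.0630 to 0.265), and Wwp1 without any 1 library other than MUT replicate 1 (0.0613 to 0.0755). Pts was at a difference of -0.0989 to -0.0940 without MUT replicate 1 or 3 or WT replicate 2 or 3. The 192-nt exon of Fam13b was lost without any MUT library or WT replicate 3 (0.0583 to 0.154), the 213-nt exon fell under the size threshold without MUT replicate 1 (-0.0931), and Marchf2 was lost without MUT replicate 3 or WT replicate 2 (0.0564 and 0.0574).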
